A study of Mus musculus with 17 samples.

Results

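The Kit receptor splits the CD31+CD45− cells of the mouse embryonic aorta into 2 gates, and the data described here compare these gates after a short culture on stroma that presents the Notch ligand Jag1. Of the 17 expression arrays of the study, 5 belong to this comparison. They were picked by their titles, 3 for Kit-positive cells on OP9-Jag1 (Kit+J) and 2 for Kit-negative cells on OP9-Jag1 (Kit−J). Each array measured 19937 named genes, 1 probe set per gene, as log2 signals. All groups came from the aorta–gonad–mesonephros (AGM) region of E11.5 mouse embryos. For Kit+J and Kit−J, CD31+CD45−Ter119− cells were sorted, kept for 2 hours on OP9 stromal cells that overexpress Jag1, and sorted again on Kit within the CD31+CD45− gate. The medium held serum, IL3, SCF (the ligand of Kit), IL6, IGF-1, FGF, VEGF and erythropoietin, and both gates shared it. The other 12 arrays are used only to set this comparison beside the same gates elsewhere. They are fresh, uncultured Kit+ and Kit− cells (3 arrays each) and cells kept for 2 hours on OP9 cells overexpressing Dll4 (Kit+D and Kit−D, 3 arrays each). The study's methods describe the replicates of the cultured cells as separate sorting experiments and do not give the number of embryos behind an array. The fresh profiles were made earlier, as a separate data set. No culture on OP9 cells without ligand is among the arrays. The effect of Jag1 against no ligand thus cannot be told apart from that of stroma, medium and re-sorting. The OP9-Dll4 cells went through the same steps on another OP9 line, which overexpresses Dll4 in place of Jag1.

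Blood stem cells of the embryo arise from specialised endothelium in the floor of the dorsal aorta, in a step called the endothelial-to-haematopoietic transition. Endothelial cells carry CD31, VE-cadherin (Cdh5), the VEGF receptor Kdr and the angiopoietin receptor Tek. Emerging blood clusters keep CD31 for a time and gain Kit, the receptor tyrosine kinase for SCF. Notch signalling between neighbouring cells, through ligands of the Jagged and Delta families, takes part in both arterial identity and blood emergence. Primordial germ cells, which also carry Kit and CD31, lie in the same tissue.

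The labels of the Kit−J arrays disagreed among themselves. Title, source name and sample code call both arrays Kit-negative, while a line in the description of both names the Kit-positive population. Replicate 3 of Kit−D and replicate 3 of Kit+D also carry a line that names the opposite population. The title was followed, and the labels were set against the data with genes called in the fresh and OP9-Dll4 comparisons, whose differences come from the other 12 arrays and whose spread was estimated over all 17. There, 449 genes were lower in Kit+ than in Kit− cells both fresh and on OP9-Dll4. Their mean signal was 7.49 to 7.56 in fresh Kit− arrays and 7.68 to 8.01 in Kit−D arrays, against 5.68 to 5.75 in fresh Kit+ and 5.90 to 6.19 in Kit+D arrays, a separation that the choice of genes fixes. The Kit−J arrays were at 6.0 and 6.16, and the Kit+J arrays at 5.65 to 5.77. Both Kit−J arrays thus lay above all 3 Kit+J arrays and within the Kit+D range, and below every other Kit− array. Of the 449 genes, 416 (92.7%) in Kit−J replicate 1 and 422 (94%) in replicate 2 were nearer to the mean of the fresh Kit+ and Kit+D groups than to that of the fresh Kit− and Kit−D groups. In the Kit+J arrays the share was 97.3% to 98.9%. The 54 genes that were higher in Kit+ cells in both other comparisons averaged 7.27 and 7.32 in the Kit−J arrays, between the Kit− arrays (6.51 to 6.75) and the Kit+J arrays (7.60 to 7.77). Over all genes, the nearest array to each of the 5 OP9-Jag1 arrays was a fresh Kit+ array. Kit−J replicate 2 was on average nearer to the Kit+J arrays (distance 73.89) than to the other Kit−J array (77.85). For Kit−J replicate 1 the order was the other way (86.35 against 77.85). Chosen again in a fit of the 12 arrays alone, an alternative added after the data were seen, 472 genes were lower (412 of them among the 449), with means of 6.09 and 6.31 in Kit−J, 5.81 to 5.91 in Kit+J, 7.58 to 8.09 in the other Kit− arrays and 5.84 to 6.32 in the other Kit+ arrays. What set the position of the Kit−J arrays was not tested, and the study's checks of sorting purity and its PCR on other cell pools are not among the data used here. Kit−J is used below as the name of the 2 arrays so titled.

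**Figure D1:**
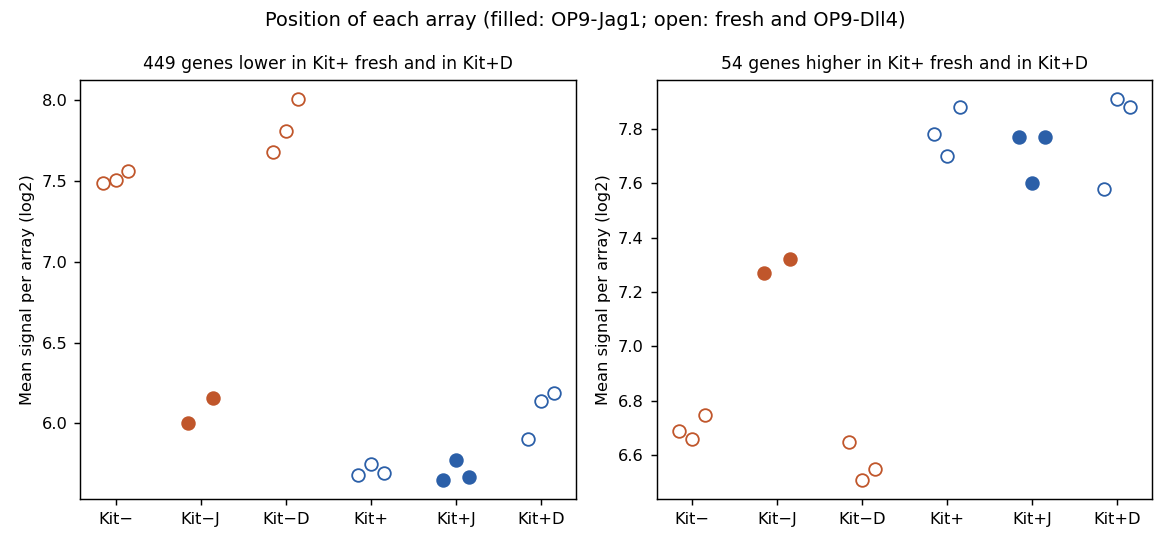
Mean log2 signal per array (vertical axis) of the 449 genes lower (left) and the 54 genes higher (right) in Kit+ than in Kit− cells both fresh and on OP9-Dll4, by group (horizontal axis), 1 point per array, filled for OP9-Jag1. The Kit−J arrays sat at 6.0 and 6.16 on the left and at 7.27 and 7.32 on the right, between the other Kit− arrays and the Kit+J arrays.

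Kit itself measured 9.08 and 8.50 in the Kit−J arrays and 9.93, 9.02 and 9.30 in the Kit+J arrays. The groups overlapped, and the difference of 0.63 (SE 0.29) had an adjusted p of 0.46. In fresh cells Kit was 8.13 to 8.29 in Kit− and 9.44 to 9.55 in Kit+ arrays (difference 1.30, adjusted p = 0.0094), and on OP9-Dll4 the difference was 1.24 (adjusted p = 0.0063). The sort gated on Kit protein, which the arrays do not measure. Kitl, the gene for SCF, was at 3.76 and 3.69 in Kit−J and at 3.68, 3.38 and 3.86 in Kit+J, below the median signal of every array (5.22 to 5.38). Fresh Kit− arrays gave Kitl signals of 6.02 to 6.43 and Kit−D arrays 7.44 to 8.34, far above both Kit−J arrays. The signed Kit+ minus Kit− difference in Kitl on OP9-Jag1 exceeded the fresh one by 2.50 (adjusted p = 0.032) and the OP9-Dll4 one by 2.99 (adjusted p = 0.0094).

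Between Kit+J and Kit−J, 18 of 19937 genes passed the test (0.0903% of those tested), which was limma's moderated test with Benjamini-Hochberg adjustment at 0.05. Of these, 11 were higher (0.0552%) and 7 lower (0.0351%) in Kit+J, and all 18 differed by at least 1 log2 unit. The lower genes were Ldb2, Igf2, Klhl4, Stard3nl, Ece1, Sgcb and Tek. The higher genes were Yars2, Acbd6, Haus1, Ppm1d, Vps41, Fam114a2, Utp18, Sos1, Palb2, Nsrp1 and Pus10. The same test called 644 genes between fresh Kit+ and Kit− cells (3.23%, with 2.67% lower and 0.562% higher) and 2615 between Kit+D and Kit−D (13.1%, with 6.62% lower and 6.5% higher). Groups did not overlap for 20% of genes on OP9-Jag1, 26.5% in fresh cells and 32% on OP9-Dll4. Random order alone separates 2 arrays from 3 for 20% of genes, and 3 arrays from 3 for fewer. These shares are therefore not on 1 scale, and that on OP9-Jag1 is no larger than random order gives. With 2 against 3 arrays there too, leaving out 1 Kit− array called 442 to 463 genes in fresh cells, and leaving out 1 Kit−D array 1573 to 1780. Differences of at least 1 log2 unit were found for 2.78% of genes on OP9-Jag1, 4.42% in fresh cells and 7.77% on OP9-Dll4. The median SE of a difference was 0.228 on OP9-Jag1 and 0.204 in each of the other comparisons. The median SD between arrays of a group was 0.22 for Kit−J and 0.252 for Kit+J. It was 0.16 to 0.168 for the fresh groups and Kit−D, and 0.257 for Kit+D. From 2 arrays such a median comes out lower than from 3, so the Kit−J value understates its spread beside the others. An unadjusted p under 0.05 was found for 2133 genes (10.7%). The medians of all genes were -0.03 on OP9-Jag1, 0.06 fresh and 0.05 on OP9-Dll4.

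The count depended on which arrays lent their spread and on single arrays. All 17 arrays, those of the earlier fresh data set included, shared 1 estimate of the spread per gene. Fitting only the 5 OP9-Jag1 arrays called 2 genes, Asz1 and Prg2, and none of the 18. Fitting the 11 cultured arrays with limma called 0 genes, with 1585 at an unadjusted p under 0.05. Without Kit−J replicate 1, 12 genes were called, 2 of them among the 18 (Tek and Yars2), and 11 of the 12 were lower in Kit+J. Without Kit−J replicate 2, 386 genes were called, all 18 among them. Leaving out Kit+J replicate 1 gave 29 genes and leaving out replicate 3 gave 3, Haus1, Igf2 and Yars2. Array weights left 5 genes and scaling on housekeeping genes 9. All 18 genes kept their direction under every setting tried, which their choice on these arrays favours.

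**Figure D2:**
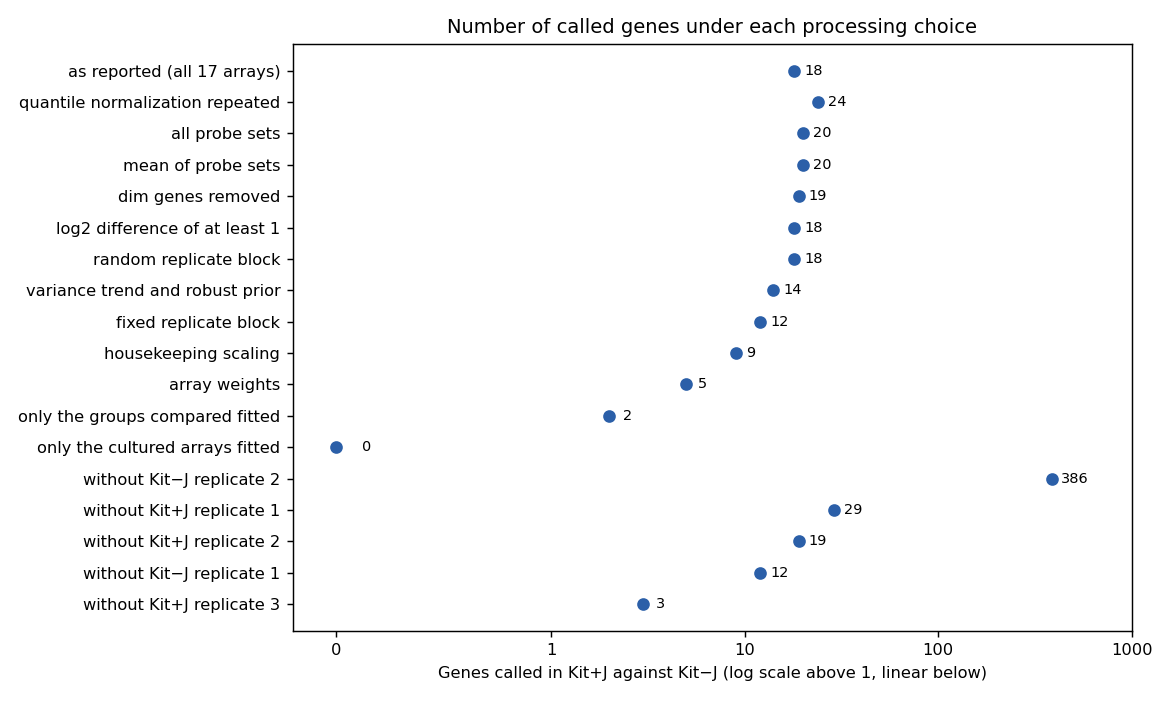
Number of genes called in Kit+J against Kit−J (horizontal axis, log scale above 1) under each processing choice (vertical axis), 1 point per setting. The count ran from 0 with the cultured arrays alone to 386 without Kit−J replicate 2, against 18 with all 17 arrays.

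Among the 7 genes lower in Kit+J, the signals of vessel-related genes are given first. Tek, the angiopoietin receptor Tie2, measured 5.75 and 6.19 in Kit−J and 4.72, 4.54 and 4.44 in Kit+J. The groups did not overlap, and all 3 Kit+J values lay below the array medians. The difference was -1.40 (SE 0.21, adjusted p = 0.0206). Fresh Kit− arrays had Tek at 8.39 to 8.95 and Kit−D arrays at 8.87 to 9.49, all above both Kit−J arrays. The Tek difference was -3.47 in fresh cells and -3.35 on OP9-Dll4, and the OP9-Jag1 difference was smaller than both by test (2.07, adjusted p = 0.004, and 1.95, adjusted p = 0.0062). Ece1, the endothelin-converting enzyme, measured 7.16 and 7.14 in Kit−J against 5.21, 5.68 and 4.93 in Kit+J. Every Kit−J value exceeded every Kit+J value by more than 1 log2 unit. The Ece1 difference of -1.88 (SE 0.27, adjusted p = 0.0127) stood beside -2.20 in fresh cells and -1.85 on OP9-Dll4, both called.

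Ldb2, an adaptor that links LIM-domain transcription factors, showed the greatest called difference. It measured 7.41 and 7.58 in Kit−J against 4.67, 5.32 and 4.30 in Kit+J. No array of either group came near the other. The difference was -2.73 (SE 0.37, adjusted p = 0.0127), with -4.03 in fresh cells and -3.10 on OP9-Dll4. Igf2, the imprinted fetal growth factor, measured 8.60 and 8.95 in Kit−J against 6.42, 6.07 and 6.83 in Kit+J. Its difference was -2.33 (SE 0.33, adjusted p = 0.0127), close to the -2.71 in fresh cells and the -2.37 on OP9-Dll4. The differences between these comparisons were 0.37 (adjusted p = 0.85) and 0.04 (adjusted p = 0.98). Klhl4, a member of the Kelch-like family, measured 5.54 and 5.77 in Kit−J against 3.45, 3.99 and 3.54 in Kit+J. Its difference of -1.99 (SE 0.27, adjusted p = 0.0127) was smaller than the -4.76 in fresh cells (by 2.77, adjusted p = 0.0034) and the -4.16 on OP9-Dll4 (by 2.17, adjusted p = 0.012). Fresh Kit− arrays held Klhl4 at 8.78 to 8.99, and Kit−D arrays at 9.53 to 9.93, well above both Kit−J arrays.

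The remaining lower genes differed in where else they were called. Sgcb encodes beta-sarcoglycan of the dystrophin-associated complex. It measured 6.07 and 6.37 in Kit−J against 4.43, 4.24 and 4.50 in Kit+J (difference -1.83, SE 0.28, adjusted p = 0.0227). On OP9-Dll4 the Sgcb difference was -1.68 (adjusted p = 0.00069), while in fresh cells it was -0.55 and not called. Stard3nl, a late-endosome membrane protein, measured 8.16 and 7.02 in Kit−J against 5.47, 5.47 and 6.12 in Kit+J. The Kit−J arrays differed from each other by over 1 log2 unit but both stayed above the Kit+J arrays. The Stard3nl difference was -1.91 (SE 0.31, adjusted p = 0.0333), with -1.10 in fresh cells (adjusted p = 0.046) and -0.37 on OP9-Dll4, not called. In all 7 lower genes Kit+J had the lowest mean of the 6 groups.

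**Figure D3:**
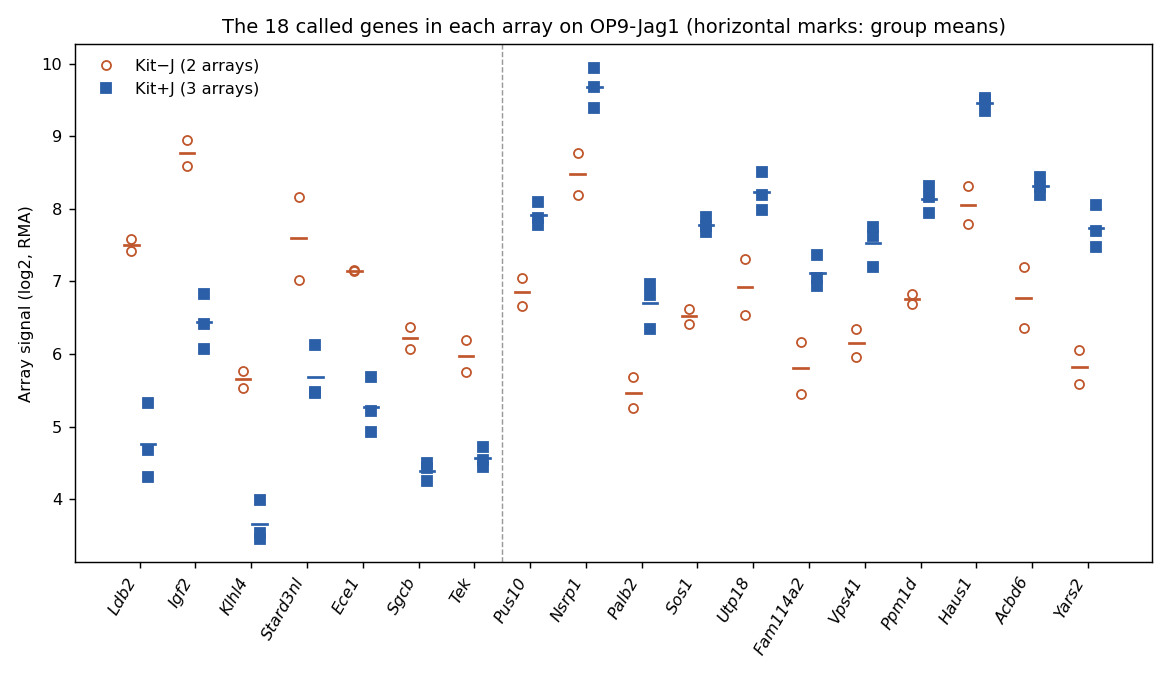
Log2 signal (vertical axis) of the 18 called genes (horizontal axis) in each OP9-Jag1 array, with horizontal marks at the group means. The 7 genes left of the dashed line were lower in Kit+J, such as Ldb2 at 4.30 to 5.32 against 7.41 and 7.58 in Kit−J, and no gene has overlapping groups.

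The 11 genes higher in Kit+J include genes of protein synthesis, cell division, DNA repair, trafficking and RNA processing. Yars2, the mitochondrial tyrosyl-tRNA synthetase, measured 5.58 and 6.06 in Kit−J against 7.48, 7.70 and 8.05 in Kit+J. It had the smallest p of all genes, with a difference of 1.92 (SE 0.22, adjusted p = 0.00728). The other 12 arrays held Yars2 within 6.98 to 7.69, above both Kit−J arrays and below the upper 2 Kit+J arrays. The fresh difference was 0.13 and the OP9-Dll4 difference 0.16, and the OP9-Jag1 difference exceeded them by 1.80 (adjusted p = 0.015) and 1.77 (adjusted p = 0.012). Haus1, a subunit of the augmin complex of the mitotic spindle, measured 7.79 and 8.31 in Kit−J against 9.5, 9.53 and 9.34 in Kit+J (difference 1.41, SE 0.18, adjusted p = 0.0127). Ppm1d, a phosphatase that turns off DNA-damage signalling, measured 6.68 and 6.82 against 7.94, 8.31 and 8.16 (difference 1.38, SE 0.20, adjusted p = 0.0127). For both genes every Kit+J array was over 1 log2 unit above every Kit−J array. The Ppm1d difference exceeded the fresh one by 1.32 (adjusted p = 0.037) and the OP9-Dll4 one by 1.27 (adjusted p = 0.027).

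Sos1, the exchange factor that couples receptor tyrosine kinases to Ras, measured 6.42 and 6.62 in Kit−J against 7.77, 7.68 and 7.88 in Kit+J (difference 1.26, SE 0.19, adjusted p = 0.0227). Its groups lay more than 1 log2 unit apart, and the difference exceeded that on OP9-Dll4 by 1.35 (adjusted p = 0.02). Acbd6, an acyl-CoA-binding protein, measured 6.35 and 7.19 in Kit−J against 8.20, 8.30 and 8.44 in Kit+J (difference 1.54, SE 0.24, adjusted p = 0.0247). Palb2, the partner of Brca2 in homologous recombination, measured 5.25 and 5.69 against 6.35, 6.81 and 6.96 (difference 1.24, SE 0.20, adjusted p = 0.0307). Palb2 alone among the 11 was also called on OP9-Dll4, with a difference of 0.81 (adjusted p = 0.0088), and none of the 11 was called in fresh cells. Vps41 of the lysosomal HOPS tether, Utp18 of the small-subunit processome, Nsrp1 of splicing speckles, the pseudouridine synthase Pus10 and Fam114a2 differed by 1.07 to 1.37. In all 11 genes replicate 1 was the lower of the Kit−J arrays. That array also had the lowest mean over the 7 housekeeping genes of all 17 arrays, 10.1 against 10.5 in Kit−J replicate 2. Scaling on these genes kept the calls of Yars2, Acbd6 and Haus1 and lost the other 8, with adjusted p from 0.0712 to 0.139, among them Ppm1d (0.102) and Sos1 (0.139). In 10 of the 11 the Kit−J mean was the lowest of the 6 group means, the exception being Palb2, lowest in Kit−D. These ranks use the arrays on which the genes were called and are given as a description.

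**Figure D4:**
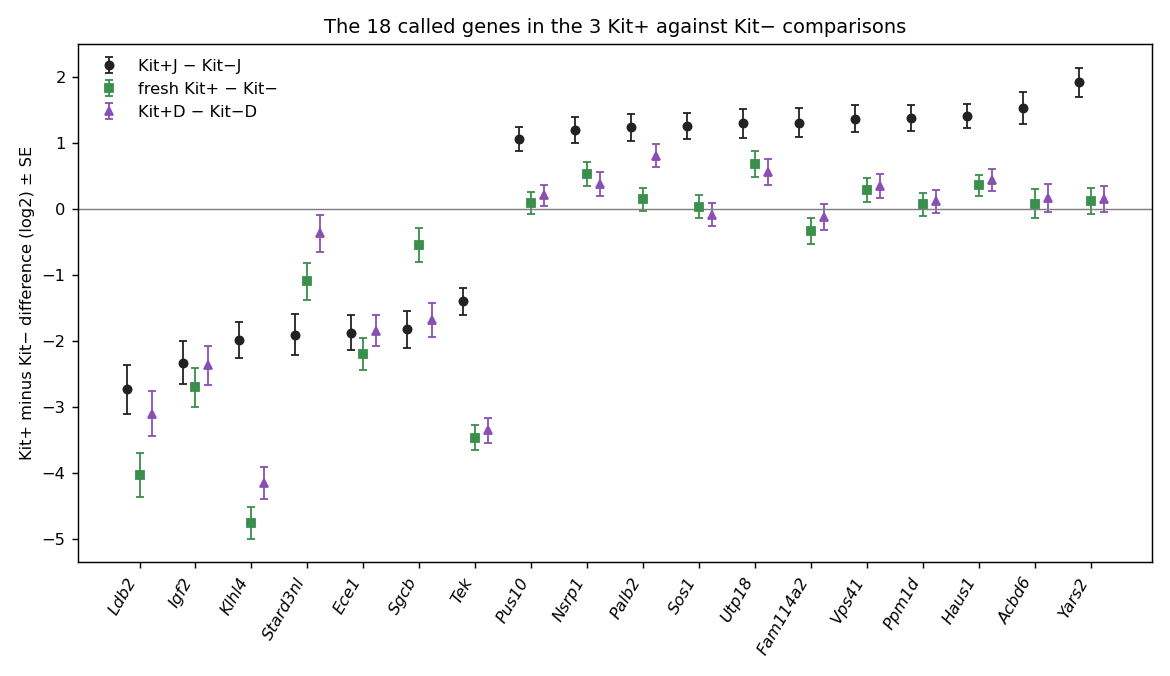
Kit+ minus Kit− difference in log2 units ± SE (vertical axis) of the 18 called genes (horizontal axis) on OP9-Jag1 (circles), in fresh cells (squares) and on OP9-Dll4 (triangles). Igf2 and Ece1 lay close together in all 3 comparisons, Klhl4 and Tek were nearer to 0 on OP9-Jag1, and Yars2 stood at 1.92 on OP9-Jag1 against 0.13 and 0.16.

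The sequences before the start sites of Tek, Klhl4 and Yars2 are shown because these genes bear the contrast, with Tek and Klhl4 low in the Kit−J arrays against other Kit− arrays and Yars2 low in them against every other group. Each window holds the 250 bases before the annotated start on the gene's strand, from RefSeq on GRCm38.p6, with capitals marking matches on either strand to the ETS core AGGAAG, the GATA motif AGATAA or the Rbpj core TGGGAA. Rbpj is the DNA-binding partner of activated Notch.
Tek, chr4:94739039-94739288, plus strand: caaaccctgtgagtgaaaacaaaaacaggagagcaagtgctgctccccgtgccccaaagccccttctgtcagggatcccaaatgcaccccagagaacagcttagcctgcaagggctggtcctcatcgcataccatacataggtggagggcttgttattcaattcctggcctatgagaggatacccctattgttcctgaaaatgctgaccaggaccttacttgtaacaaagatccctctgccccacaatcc
Klhl4, chrX:114474083-114474332, plus strand: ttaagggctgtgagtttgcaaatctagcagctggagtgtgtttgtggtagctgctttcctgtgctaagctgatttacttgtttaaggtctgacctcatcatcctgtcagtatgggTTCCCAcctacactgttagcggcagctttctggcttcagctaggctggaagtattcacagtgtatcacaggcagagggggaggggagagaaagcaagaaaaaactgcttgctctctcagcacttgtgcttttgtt
Yars2, chr16:16302715-16302964, plus strand: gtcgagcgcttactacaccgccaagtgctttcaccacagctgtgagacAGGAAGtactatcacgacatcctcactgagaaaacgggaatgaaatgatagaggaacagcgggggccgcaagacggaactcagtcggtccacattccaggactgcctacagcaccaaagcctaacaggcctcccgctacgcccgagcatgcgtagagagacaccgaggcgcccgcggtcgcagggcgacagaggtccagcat
The Klhl4 window held 1 match to the Rbpj core, the Yars2 window 1 to the ETS motif AGGAAG and the Tek window none of the marked matches. The Yars2 window had 19 CG dinucleotides, the Tek window 2 and the Klhl4 window 1. Windows were found for 14 of the 18 called genes, 21 windows in all, since some genes have several annotated starts. The Rbpj core was in 4 of 11 windows of lower genes and 3 of 10 of higher genes, against 21.6% of all 32851 windows. The ETS motif AGGAAG was in 1 of 11 and 2 of 10, against 29.5%, and the GATA motif in 0 of 11 and 1 of 10, against 9.99%. A match is a run of letters and not a measured site.

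Endothelial genes as a group leaned towards Kit−J, though only Tek passed. Of 44 endothelial identity genes, 23 were lower in every Kit+J array than in both Kit−J arrays, 1 (Pecam1) was higher and 20 overlapped. Over all genes 9.97% were lower without overlap and 10% higher. The median difference of the list was -0.665, against -0.03 over all genes, and stayed between -0.73 and -0.51 when single arrays were left out. The mean signal of the list was 6.37 and 6.66 in the Kit−J arrays and 5.77 to 5.85 in the Kit+J arrays. It was 8.08 to 8.19 in fresh Kit− and 8.27 to 8.79 in Kit−D arrays, and 5.89 to 5.99 in fresh Kit+ and 6.15 to 6.64 in Kit+D arrays. In bulk samples, fewer endothelial cells and less of these RNAs per cell cannot be told apart. Cdh5, VE-cadherin of endothelial junctions, measured 8.15 and 8.29 in Kit−J against 4.68, 6.33 and 6.17 in Kit+J, a difference of -2.50 (SE 0.62) with an adjusted p of 0.15. Both Kit−J values of Cdh5 were below those of the fresh Kit− arrays, whose mean was 11.05. Nrp1, a co-receptor for VEGF and semaphorins, measured 6.08 and 6.61 against 5.19, 5.47 and 4.89 (difference -1.16, SE 0.21, adjusted p = 0.067). Pecam1, which encodes the gating antigen CD31, measured 9.08 and 8.98 against 9.92, 9.17 and 9.74 (difference 0.58, adjusted p = 0.61). The same list had 34 members called lower in fresh Kit+ cells (2.67% of all genes) and 42 on OP9-Dll4 (6.62%).

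The vessel pathways followed the same lean with few calls. Of 10 VEGF receptors and ligands none passed, with a median of -0.385. Kdr, the main VEGF receptor of endothelium, measured 5.11 and 6.38 in Kit−J against 4.81, 5.33 and 4.71 in Kit+J, and the groups overlapped (difference -0.80, SE 0.38, adjusted p = 0.47). Of 7 angiopoietin and Tie genes, Tek passed. Tek's relative Tie1 measured 6.72 and 6.41 against 5.4, 6.24 and 5.75 (difference -0.77, adjusted p = 0.35), and Ptprb, the phosphatase that acts on Tek, 6.23 and 6.66 against 5.04, 5.57 and 5.38 (difference -1.11, adjusted p = 0.15). Neither Tie1 nor Ptprb overlapped between the groups. The median of this list was -0.13, moving to -0.615 without Kit−J replicate 1 and to -0.356 without replicate 2. Of 19 arterial genes 7 were lower without overlap, against 9.97% of all genes, and none passed (median -0.325). The arterial connexin Gja5 measured 6.59 and 6.53 in Kit−J against 5.05, 5.44 and 5.03 in Kit+J, a clear gap that did not pass (difference -1.39, SE 0.37, adjusted p = 0.17). Of 5 venous genes 4 were lower without overlap and none passed (median -0.74), among them the venous regulator Nr2f2 with 5.77 and 6.12 against 5.04, 5.23 and 5.36. Basement membrane and adhesion genes (27, median -0.32) and semaphorin, plexin and guidance genes (24, median -0.21) had no called member.

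Genes of the Notch pathway gave no call between Kit+J and Kit−J. Of 24 receptors, ligands and modulators, 5 were lower and 1 higher without overlap, against 9.97% and 10% of all genes (median -0.17). Notch1 measured 7.06 and 7.15 in Kit−J against 7.60, 7.04 and 7.45 in Kit+J, with overlap. Jag1 measured 6.23 and 5.03 against 4.89, 4.62 and 4.97 (difference -0.80, SE 0.38, adjusted p = 0.47), and the higher Kit−J value came from replicate 1. The stroma overexpresses Jag1, and the cells were re-sorted as CD31+CD45− after the culture. Of 12 Notch targets, 5 were lower without overlap and none passed (median -0.17). The repressor Hes1 measured 5.96 and 7.33 in Kit−J against 6.77, 6.65 and 6.76 in Kit+J, within the spread of the Kit−J arrays, and its relative Hey1 differed by -0.18 (SE 0.62). Hey2 lay between 3.43 and 3.79 in all 5 arrays, below every array median, with a difference of -0.007. Its difference was -1.99 in fresh cells and -1.16 on OP9-Dll4, both called. By limma's test the OP9-Jag1 value exceeded the fresh one by 1.98 (adjusted p = 0.012) and the OP9-Dll4 one by 1.15 (adjusted p = 0.08). Of the 12 targets, 3 passed that test against fresh cells, where 0.582% of all genes did. Against OP9-Dll4 0 of the 12 passed, where 1.98% of all genes did, so a list of this size could well hold none. Of 21 stromal and mesenchymal markers, 2 were lower without overlap, near the share of all genes, and none passed. Their mean per array was 5.22 and 5.41 in Kit−J and 4.88 to 5.51 in Kit+J, which overlapped, with a median difference of -0.12 that moved to 0.02 without Kit+J replicate 3 and to 0.00 under repeated quantile scaling.

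No gene of the blood lists passed. Of 25 early blood transcription factors none was higher without overlap, 7 were lower and none passed. Over all genes 10% were higher and 9.97% lower without overlap. The median of the list was -0.24, against 0.26 in fresh cells and 0.19 on OP9-Dll4. Runx1, required for the endothelial-to-haematopoietic transition, measured 7.82 and 8.78 in Kit−J against 7.85, 7.67 and 7.74 in Kit+J (difference -0.55, SE 0.58, adjusted p = 0.81). Myb, needed for definitive blood, measured 7.23 and 8.86 against 7.96, 8.35 and 8.72. Both groups overlapped for Runx1 and Myb, and the Kit−J arrays were further apart than the group means. The Myb difference was 0.30 and turned to -0.51 without Kit−J replicate 1. In fresh cells Myb was higher in Kit+ by 1.91 and on OP9-Dll4 by 2.32, both called. Of 23 haematopoietic surface and signalling genes 7 were lower without overlap and none higher (median -0.30). Ptprc, which encodes the CD45 antigen gated out in the sort, measured 8.12 and 8.86 in Kit−J against 7.84, 7.38 and 8.61 in Kit+J.

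Of 12 genes of the LIM-domain-binding complex, which joins Ldb adaptors to Lmo, Tal1 and Gata factors, Ldb2 passed and 5 were lower without overlap (median -0.40). Without overlap, 9.97% of all genes were lower and 10% higher. Ssbp4, a partner that stabilises Ldb proteins, measured 7.38 and 7.01 in Kit−J against 6.57, 6.60 and 6.32 in Kit+J (difference -0.70, SE 0.15, adjusted p = 0.11). The paralogue Ldb1, used by blood progenitors, measured 9.12 and 9.23 against 9.55, 8.32 and 8.94 and overlapped. Of 16 insulin-like growth factor genes Igf2 passed (median -0.17). Igf1 measured 5.48 and 5.94 against 5.70, 4.55 and 5.22, and Igf2r, the clearance receptor of Igf2, 6.97 and 7.19 against 7.79, 7.75 and 7.39 (difference 0.57, adjusted p = 0.61). Igf2 and Igf2r thus differed in opposite directions without overlap, of which only Igf2 passed. Of 20 imprinted growth genes Igf2 passed, 9 were lower and 2 higher without overlap (median -0.32). Grb10, an imprinted brake on growth factor receptors, measured 7.97 and 7.62 against 6.53, 5.83 and 6.18 (difference -1.62, SE 0.38, adjusted p = 0.14). Nnat and Meg3, also imprinted, differed by -1.15 (adjusted p = 0.14) and -1.07 (adjusted p = 0.25).

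The called Yars2 was set beside the other mitochondrial tRNA synthetases. Of 16 measured, Yars2 passed, and 4 were higher and 1 lower without overlap, where 10% of all genes were higher and 9.97% lower. The median of this list was 0.18, turning to -0.02 without Kit−J replicate 1. Iars2, for isoleucine, measured 6.33 and 6.85 in Kit−J against 7.50, 7.30 and 7.05 in Kit+J (difference 0.69, SE 0.22, adjusted p = 0.25), while Nars2, for asparagine, measured 5.36 and 5.33 against 5.22, 4.63 and 5.12. Of 29 cell cycle genes 10 were higher and 2 lower without overlap and none passed. Their median was 0.25, falling to 0.07 without Kit−J replicate 1 and to 0.06 under repeated quantile scaling. Mcm7, a subunit of the replicative helicase, measured 7.94 and 7.93 against 8.68, 8.43 and 8.89 (difference 0.73, SE 0.23, adjusted p = 0.24). Ccnd2, a G1 cyclin, lay the other way, at 9.24 and 9.29 against 7.71, 7.86 and 9.14 (difference -1.03, adjusted p = 0.28). Of 26 early response genes 8 were lower and 2 higher without overlap (median -0.29), among them Nr4a1 with 7.38 and 7.71 against 6.80, 6.41 and 5.82 (difference -1.20, SE 0.28, adjusted p = 0.14).

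Germ cell markers were bright in both gates. Of 26 markers 12 were higher in Kit+J without overlap, none lower and none passed, where 10% of all genes were higher and 9.97% lower. Their median was 0.33, and 0.24 to 0.54 with single arrays left out. Their mean per array was 7.55 and 7.76 in Kit−J and 7.98 to 8.47 in Kit+J, against 6.72 to 6.83 in fresh Kit−, 7.84 to 8.18 in fresh Kit+, 5.07 to 6.02 in Kit−D and 5.42 to 8.70 in Kit+D. Dppa5a measured 11.66 and 11.44 in Kit−J against 11.78, 11.73 and 11.86 in Kit+J. Dppa3 measured 10.10 and 10.17 against 10.51, 10.29 and 10.45. Ddx4, a germline RNA helicase with the greatest difference of the list, was at 6.10 and 5.57 against 7.88, 7.37 and 7.66 (difference 1.80, SE 0.84, adjusted p = 0.46), and Sycp3, of the meiotic synaptonemal complex, at 6.33 and 6.55 against 8.60, 7.13 and 8.58 (difference 1.66, adjusted p = 0.38). The part of germ cells in the comparison was not tested.

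Myeloid markers lay the other way. Of 22, 12 were lower in Kit+J without overlap, against 9.97% of all genes, and none higher or called (median -0.41). Their mean per array was 6.02 and 6.20 in Kit−J and 5.28 to 5.58 in Kit+J. Tyrobp, an adaptor of myeloid receptors, measured 9.90 and 10.35 in Kit−J against 9.07, 8.32 and 9.42 in Kit+J, bright in all 5 arrays. Of 11 megakaryocyte markers 3 were lower without overlap (median -0.49), with the platelet chemokine Pf4 at 9.11 and 9.07 against 4.15, 4.87 and 8.52. Kit+J replicate 3 held nearly the Kit−J level of Pf4. Of 12 erythroid markers 3 were lower without overlap (median -0.155), with the embryonic globin Hbb-y at 7.30 and 8.64 against 5.77, 4.27 and 5.29 (adjusted p = 0.12). Epithelial markers (15, median 0.185) turned to -0.01 without Kit+J replicate 2, and neural crest and neuronal markers (11, median -0.07) to 0.06 without Kit−J replicate 1 and to 0.009 under repeated quantile scaling. None of these marker lists had a called member, and their part in the 18 calls was not tested. Both sorts left out CD45+ cells, and the sort before culture also Ter119+ cells. Of 7 housekeeping genes the median was 0.05, turning to -0.19 without Kit−J replicate 1 and to -0.046 and -0.039 under the scalings on housekeeping genes and on quantiles.

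**Figure D5:**
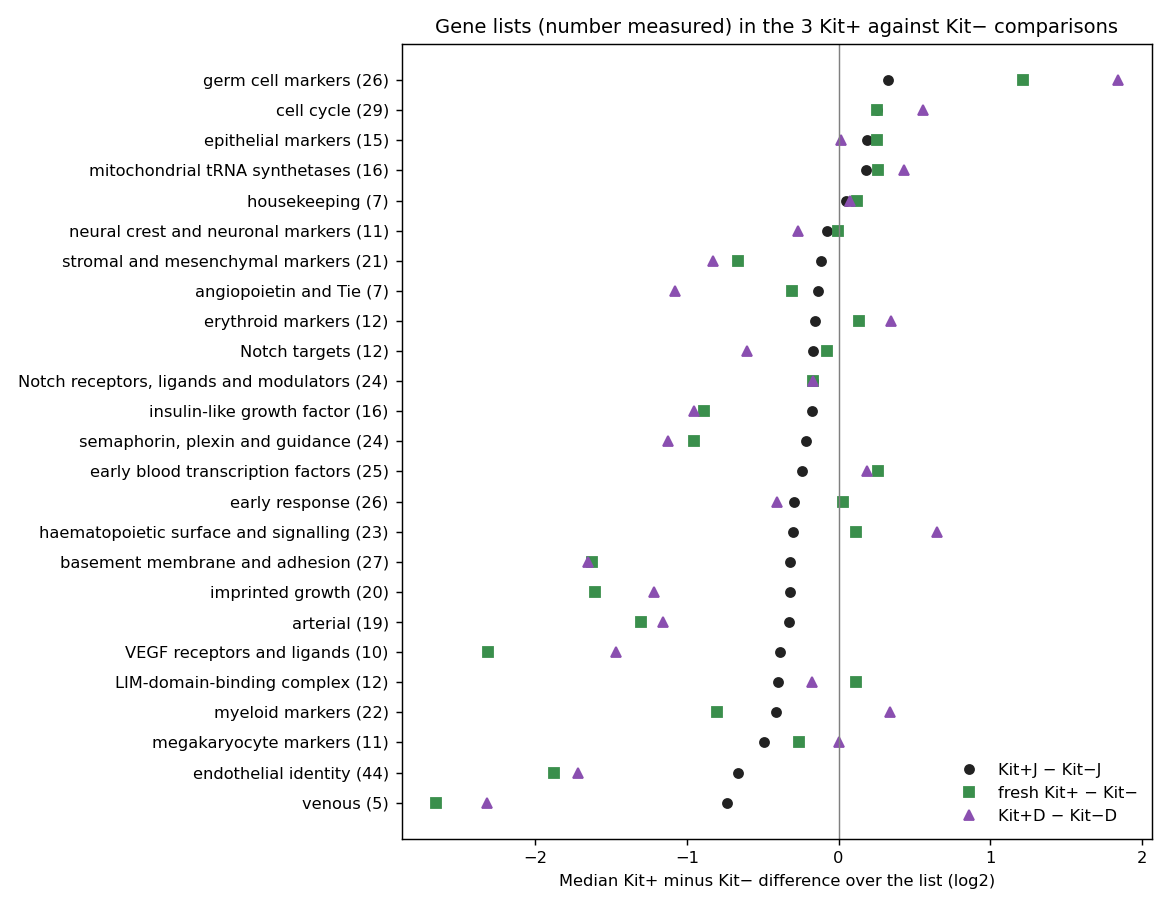
Median Kit+ minus Kit− difference in log2 units (horizontal axis) over each gene list, with the number of genes measured (vertical axis), on OP9-Jag1 (circles), fresh (squares) and on OP9-Dll4 (triangles). Endothelial identity stood at -0.665 on OP9-Jag1 against -1.88 fresh and -1.72 on OP9-Dll4, and germ cell markers at 0.33 against 1.22 and 1.85.

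Genes that separated the gates in both other settings were then followed on OP9-Jag1, whose arrays entered the choice only through the shared spread. Over the 449 genes lower in Kit+ cells fresh and on OP9-Dll4, the median difference on OP9-Jag1 was -0.32, against -1.59 and -1.68 in the comparisons that chose them. Of these, 366 (81.5%) lay below 0 on OP9-Jag1, where 53.8% of all genes did. Without overlap, 157 (35%) were lower, against 9.97% of all genes. The 5 that passed were Ldb2, Igf2, Klhl4, Ece1 and Tek. Over the 54 genes higher in both, the median was 0.37 against 0.99 and 1.05, and 46 (85.2%) lay above 0 where 46.2% of all genes did. Without overlap, 25 of the 54 (46.3%) were higher, against 10% of all genes, and none passed. With the genes chosen in a fit of the 12 other arrays alone, the median was -0.30 over 472 lower genes, of which 371 (78.6%) lay below 0 and 144 (30.5%) were lower without overlap, and 0.38 over 77 higher genes, of which 61 (79.2%) lay above 0. Because the fresh and OP9-Dll4 arrays chose the genes, their own sizes are not an even match for those on OP9-Jag1. Among the most separated of these genes, Emcn, an endothelial sialomucin, measured 5.77 and 7.24 in Kit−J against 4.19, 4.51 and 5.2 in Kit+J (difference -1.87, adjusted p = 0.34, with a fresh difference of -4.81). Sparcl1 measured 5.98 and 7.71 against 4.77, 4.56 and 4.86 (difference -2.11, adjusted p = 0.25, with a fresh difference of -4.57). Atf7ip2, among the higher genes, measured 4.73 and 5.36 against 6.68, 6.03 and 6.61 (difference 1.39, adjusted p = 0.29).

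Whether the Kit difference itself was another one on OP9-Jag1 was tested by subtracting the fresh or the OP9-Dll4 difference from it. Against fresh cells 116 genes passed (0.582%), 111 with a higher value on OP9-Jag1 (0.557%) and 5 with a lower one (0.0251%). Against OP9-Dll4 395 passed (1.98%), 271 higher (1.36%) and 124 lower (0.622%). The OP9-Dll4 count fell to 44 when only the cultured arrays were fitted, to 161 with array weights and to 198 with housekeeping scaling, and the fresh count rose to 175 when only the groups compared were fitted. Both tests use the 5 OP9-Jag1 arrays, so they are not independent of each other. The 111 genes had a median difference of -0.17 on OP9-Jag1 and -2.30 in fresh cells, and the 271 genes 0.11 on OP9-Jag1 and -1.61 on OP9-Dll4. The genes were chosen for this gap, so the gap between the medians only describes the choice. For Kdr the difference was -4.89 fresh, -3.77 on OP9-Dll4 and -0.80 on OP9-Jag1, so it exceeded the fresh one by 4.09 (adjusted p = 0.0021). The group means of Kdr were 9.70 in Kit−, 4.81 in Kit+, 10.01 in Kit−D, 6.25 in Kit+D, 5.75 in Kit−J and 4.95 in Kit+J. The Kit+J mean of Kdr was thus beside the fresh Kit+ mean, while the Kit−J mean was far from the other Kit− means. Sema6a, a transmembrane semaphorin, measured 6.08 and 6.08 in Kit−J against 6.55, 6.93 and 6.50 in Kit+J, while its means were 8.33 in Kit− and 5.3 in Kit+ cells. The Sema6a difference exceeded the fresh one by 3.62 (adjusted p = 0.00044) and the OP9-Dll4 one by 3.26 (adjusted p = 0.0015). The Wnt receptor Fzd4 did so by 2.72 (adjusted p = 0.00044) and 2.94 (adjusted p = 0.00047). For Nrp1 the excess was 2.91 over fresh cells (adjusted p = 0.00044), and 1.13 over OP9-Dll4, which missed the threshold (adjusted p = 0.056). In the opposite direction, Nr4a1 differed from its fresh difference of 0.72 by -1.92 (adjusted p = 0.036). Since the fresh arrays form a data set of their own, culture and data set cannot be told apart in any value set across them, whereas the OP9-Dll4 arrays belong to the same set as the OP9-Jag1 arrays. Leaving out Kit−J replicate 1 reduced the counts to 38 and 91, and leaving out Kit−J replicate 2 raised them to 297 and 811.

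The greatest differences without overlap that did not pass include granule, chemokine and germline genes. Prg2, a granule protein of eosinophils, measured 8.64 and 9.37 in Kit−J against 4.49, 4.61 and 4.99 in Kit+J (difference -4.31, SE 1.51, adjusted p = 0.302). The chemokine Ccl5 measured 10.30 and 9.93 against 6.69, 7.48 and 7.07 (difference -3.04, adjusted p = 0.327), and Cxcl10 8.82 and 8.99 against 5.37, 6.68 and 6.10 (difference -2.86, adjusted p = 0.464). For all 3 genes the arrays of the groups lay far apart, and the SE comes from the spread within all 6 groups. Prg2 passed when the 5 OP9-Jag1 arrays were fitted alone. Adamts3 measured 11.12 in Kit−J replicate 1 and 5.81 in replicate 2 against 4.25 to 5.55 in Kit+J (difference -3.69, adjusted p = 0.286), so 1 array set its value. In the other direction Asz1, a germline gene, measured 4.32 and 4.55 in Kit−J against 7.33, 7.11 and 7.20 in Kit+J (difference 2.78, SE 0.63, adjusted p = 0.137), and also passed in the fit of 5 arrays. Rida measured 3.89 and 6.21 against 7.42, 7.11 and 7.74 (difference 2.37, adjusted p = 0.091), and Sccpdh 6.14 and 7.07 against 8.25, 9.06 and 8.49 (difference 1.99, adjusted p = 0.0667). Rida and Sccpdh were low in both Kit−J arrays and lower in replicate 1, as the called higher genes were.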

How the data were processed

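Total RNA was amplified with NuGEN kits and hybridised to Affymetrix Mouse Gene 1.0 ST arrays. The authors deposited log2 signals summarised by RMA, whose version is not given in the sources used here. Of 34760 probe sets, 21640 had 1 gene symbol in the platform annotation, 1321 several and 11799 none. 21553 matched a RefSeq Entrez entry, and no symbol changed. For the 954 genes with several probe sets the one with the highest mean was kept, giving 19937 genes. No depth applies, and the number of arrays limits the precision.

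A group-means model over all 17 arrays was fitted with limma 3.58.1 in R 4.3.3 (lmFit, eBayes). Genes were called at a Benjamini-Hochberg adjusted p under 0.05 over all genes. Groups followed the titles. A figure legend of the study says that a Kit−J sample was left out for technical reasons, and it is not analysed here. The fit was run on simulated data before use. It called 58 of 100 genes with a true difference of 1, 92 of 100 with a difference of 2, and 8 unchanged genes. The simulated noise had 1 SD per gene in all groups and independent arrays. It therefore does not test unequal spread between groups or pairing. Alternatives were the arrays fitted, the variance model, array weights, a filter on dim genes (mean under 5 in every group), housekeeping or repeated quantile scaling, the probe set rule, a size threshold of 1, replicate blocks and leaving out each array. Members and gene lists were chosen with earlier results of these data known.

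Named were all called genes, Kit, Kitl, Tek, Igf2 and Ldb2, the 10 greatest non-overlapping differences each way, up to 4 genes of smallest p per list, the 10 of smallest p each way in each difference of differences, and the 8 each way that separated both other comparisons most. Other list members were named for their known role and were chosen after their values were seen. Some genes of the lists are not reported here, and each list is given by the number of its members used. Promoter windows came from RefSeq on GRCm38.p6. Figures were drawn with matplotlib 3.10.9.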

Additional observations from a re-analysis of the deposited data

Results flagged for a closer look

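The Kit+ minus Kit− difference on OP9-Jag1 differed from that in fresh cells for 116 genes and from that on OP9-Dll4 for 395 genes, each tested directly as a difference of the 2 differences with limma. The OP9-Jag1 arrays are shared by both tests. Values are log2 units, OP9-Jag1 minus the other comparison, and all those given passed at an adjusted p under 0.05.

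Against fresh cells the value was 4.09 for Kdr, 3.74 for Aplnr, 3.69 for Kif1c, 3.62 for Sema6a, 3.50 for Flrt2, 3.10 for Lama4, 2.92 for Clec14a, 2.91 for Nrp1 and 2.85 for Limch1. It was 2.77 for Klhl4, 2.72 for Fzd4, 2.69 for Itga2, 2.62 for Gja5, 2.55 for Nrep, 2.50 for Kitl, 2.45 for Ptprb, 2.37 for Peg10 and 2.35 for Ptprd. Further genes stood at 2.28 for Plxnd1, 2.11 for Cdh11, 2.10 for Spata6, 2.07 for Tek, 1.88 for Myo6, 1.87 for Efnb2, 1.86 for Nr2f2, 1.80 for Yars2 and 1.64 for Fam114a2. The remaining higher values were 1.5 for Arhgef10, 1.32 for Ppm1d and 0.96 for Spag9. Lower than in fresh cells were -2.23 for H2bc1, -1.92 for Nr4a1 and -1.91 for Cryz.

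Against OP9-Dll4 the value was 3.26 for Sema6a, 3.24 for Itga2, 3.0 for Flrt2, 2.99 for Kitl, 2.97 for Kdr, 2.94 for Fzd4, 2.92 for Kif1c, 2.74 for Hecw2 and 2.68 for Limch1. Next came 2.59 for Spata6, 2.49 for Myo6, 2.39 for Clec14a, 2.36 for Mecom, 2.29 for Ptprd, 2.17 for Klhl4, 2.05 for Ptprb, 1.95 for Tek and 1.94 for Nrep. The smaller higher values were 1.87 for Arhgef10, 1.84 for Nr2f2, 1.77 for Yars2, 1.43 for Fam114a2, 1.41 for Spag9, 1.37 for Acbd6, 1.35 for Sos1 and 1.27 for Ppm1d. Lower than on OP9-Dll4 were -2.55 for Ifitm1, -2.08 for Atp5g1, -1.83 for Mrps28, -1.75 for Mthfd1, -1.43 for Lrwd1, -1.36 for Fkbp8, -1.27 for Dut, -1.26 for Cryz and -1.24 for Nup210. Also lower were -1.11 for Dhrs13 and -1.05 for Atp5g2.

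The Kit−J arrays took part in all of these values, and whether their position near the Kit+ arrays set them was not tested.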

How the results depend on the processing

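The 18 calls between Kit+J and Kit−J became 2 when only their groups were fitted, 0 with the cultured arrays (limma, 1585 genes at an unadjusted p under 0.05), 5 with array weights and 9 with housekeeping scaling, which moved the median of all genes to -0.123. The split under housekeeping scaling was 3 higher and 6 lower, against 11 and 7. Leaving out single arrays gave 3 to 386. The 644 fresh calls became 1335 with only those groups and 1728 with array weights, and 417 to 463 without single arrays. The 2615 OP9-Dll4 calls became 1321 with only those groups, 1472 with cultured arrays, 4063 with array weights and 1218 at a difference of at least 1, and 1573 to 3077 without single arrays. The 116 genes that differed from fresh cells became 175 with only the groups compared and 38 to 297 without single arrays. The 395 that differed from OP9-Dll4 became 44 with only those groups or with the cultured arrays, 161 with array weights, 198 with housekeeping scaling and 91 to 811 without single arrays.

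Replicate numbers 1 and 2 are shared by Kit+J and Kit−J. The labels name no shared litter or day, so the numbers were not taken as pairing. By the study's methods both gates were recovered from each culture, so arrays may be paired. Same-numbered arrays correlated at -0.114 and -0.263 in their deviations from group means. With 2 Kit−J arrays these deviations mirror each other, so the correlations cannot decide whether arrays were paired. On OP9-Dll4, same-numbered arrays shared their order for some lists and not for others. Myeloid means of replicates 1, 2 and 3 were 7.24, 5.04 and 4.83 for Kit−D, against 8.08, 5.07 and 4.62 for Kit+D. Megakaryocyte means were 7.77, 7.22 and 6.41, against 7.06, 6.66 and 5.62. Epithelial means differed in order, at 5.52, 5.77 and 5.50 against 5.42, 6.10 and 6.35. Whether pairing set these orders was not tested, and the main fit treats arrays as unpaired. A fixed replicate block called 12 genes, 4 of the 18 among them, and a random block 18. The fixed block called 188 genes in the difference from OP9-Dll4.

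Differences of named genes changed sign only in genes that were not called. Housekeeping scaling turned Atp5g2 to -0.088, Mthfd1 to -0.084 and Ppia to -0.046. Repeated quantile scaling turned Atp5g2 to -0.035, Dut to -0.053, Hprt to -0.039, Mthfd1 to -0.085 and Ppia to -0.036. The mean of probe sets turned Atp5g2 to -0.068 and Ppia to -0.181, and the fixed replicate block turned Apoc1 to -0.005, Atp5g2 to -0.003 and Mt2 to -0.003. Without single arrays the range was -0.356 to 0.088 for Angpt4, -0.005 to 0.904 for Apoc1, -0.167 to 0.185 for Atp5g2, -0.019 to 0.828 for Cars2, -0.004 to 0.225 for Clec14a, -0.730 to 0.068 for Col1a1, -1.402 to 0.323 for Flrt2, -0.190 to 0.539 for Hprt and -0.008 to 0.353 for Ifitm1. It was -0.544 to 0.107 for Itga2, -0.196 to 0.041 for Kitl, -0.003 to 0.387 for Mt2, -0.165 to 0.191 for Mthfd1, -0.513 to 1.117 for Myb, -0.105 to 0.002 for Nup210 and -0.032 to 0.135 for Ppia. Over named genes and alternatives, 2116 values kept direction and side of the threshold, 116 lost the call, 14 gained one and 33 changed sign. Only the 18 genes called in the main fit could lose a call, so all 116 losses fell on them. The 2116 include genes that stayed uncalled and do not measure how stable the calls were. Of the 18 calls, 9 were kept with housekeeping scaling, 5 with array weights and 4 with the fixed replicate block. With only the cultured arrays or only the groups compared, 0 were kept. All 18 were kept with repeated quantile scaling, the mean of probe sets, the dim-gene filter and the random block. Of the list medians, 46 moved by more than their spread and 179 did not. The causes were not tested. The p-values of the main fit rest on a spread pooled within all 6 groups of the 17 arrays, of which only 2 are Kit−J.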
